A study of Homo sapiens with 15 samples.

Results

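HEK293FT cells, a fast-growing line derived from human embryonic kidney, were sequenced after CRISPR activation with the guides of the libraries titled trex8168, and were compared with cells that received non-targeting guides. The comparison uses 3 trex8168 and 3 control libraries of 15 in the series, and all 11230 rows of the authors' table, in which a row is a locus of transcription. Both groups received 5 guide RNAs together with dCas9-VP64 and the MS2, p65 and HSF1 activator plasmid, were kept in 2 ug/mL puromycin from 24 hours and gave polyA RNA at 48 hours. Controls therefore carry the activator too, and differ in the guides. The transfection was transient and was made in 1 cell line. The 9 other libraries, titled trex0108, trex5008 and trex4039, have the same design with other guides, and all 4 target groups share the 3 controls.

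The labels conflict on the target. The libraries titled trex8168 carry a target label that reads TrEx5008, and those titled trex5008 carry one that reads TrEx8168. The columns of the table follow the titles, which are used here, and the table does not pair any TrEx number with a locus.

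In CRISPR activation, a Cas9 that cannot cut DNA is led by guides to a site upstream of a transcription start. Activation domains bound to it (VP64, and p65 and HSF1 through MS2 loops in the guide) then recruit the transcription machinery to that start. A long non-coding RNA is a transcript with no known protein product. TrEx RNAs are long non-coding RNAs that are transiently expressed as cortical neurons form, per the series title.

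The table holds 1 mean normalised count per group, with no value per library, so no SD can be given and the depth is unknown. Fold changes and adjusted p-values are the authors' own. A row is called here when its deposited adjusted p is under 0.05. The ratio of means is log2((trex8168 + 1)/(control + 1)), a description with no test. Each of the 11230 rows passed an adjusted p of 0.1 in 1 or more of the 4 comparisons, and 7925 rows are present through another comparison alone. The table is thus a selected set, and shares of it are not shares of the genome.

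By deposited fold change, the largest rise in the table was that of the lincRNA AC116609.2 on the short arm of chromosome 2. Its locus runs from 739816 to 751712 of chromosome 2 in hg19. The GENCODE release 29 model of this gene (GRCh38, chromosome 2, plus strand, 741977 to 749856) holds 1 transcript of 256 bases in 2 exons of 133 and 123 bases, with a GC content of 51.2%. The transcript is printed because this RNA has the largest fold change of the comparison, with exon 1 in capitals and exon 2 in lower case:

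AC116609.2: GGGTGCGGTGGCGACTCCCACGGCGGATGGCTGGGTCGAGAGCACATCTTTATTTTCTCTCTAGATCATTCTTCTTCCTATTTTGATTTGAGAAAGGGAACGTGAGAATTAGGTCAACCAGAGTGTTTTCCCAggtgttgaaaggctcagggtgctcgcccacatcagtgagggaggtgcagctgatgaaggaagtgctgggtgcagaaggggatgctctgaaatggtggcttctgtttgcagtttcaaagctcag

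The mean normalised count of AC116609.2 was 162.5 in control and 3908 in trex8168. Its mean was 149.8 in trex0108, 138.1 in trex5008 and 331.1 in trex4039. The trex8168 mean stood far above the other 4, and the trex4039 mean lay between them and it. The ratio of means was 4.58 on the log2 scale, and the authors' deposited table gives a log2 fold change of 4.23 with an adjusted p listed as 0. For trex4039, the authors' deposited table gives 0.89 (adjusted p 5.06e-20). The locus in the table is longer than the GENCODE gene (11897 against 7880 bases), so reads outside the printed transcript may be counted with it.

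The other rows listed within 1 Mb of AC116609.2 did not pass the threshold, and none of them lies closer than 192.9 kb. The nearest listed row, the antisense RNA AC116614.1, had means of 220.1 in control and 227.8 in trex8168. XLOC_032422, an unnamed locus 434.8 kb away on the other side, had 3572 and 4100, and the authors' deposited table gives 0.19 (adjusted p 0.0542). XLOC_035149, 872.6 kb away, had 3335 and 3332. No protein-coding row was listed among the genes fixed for this region, and genes that the table leaves out were not used here.

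**Figure D1:**
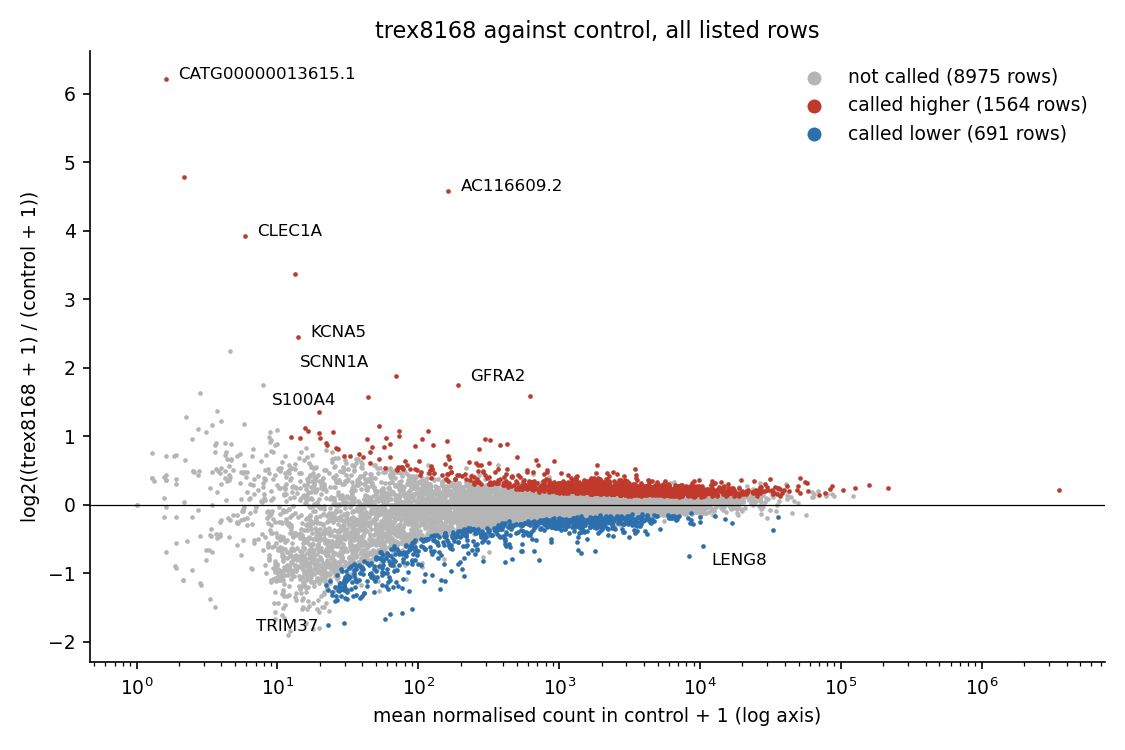
Ratio of means (log2, y axis) against the mean normalised count in control plus 1 (log x axis) for all 11230 rows; each point is a row, red and blue are rows called higher and lower, and grey rows were not called or have no adjusted p. AC116609.2 (4.58) stands apart from rows of similar level, and called rows of high level sit close to 0.

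Across the table, 1564 rows were called higher and 691 lower. This is 14.6% and 6.45% of the 10718 rows with an adjusted p, the background for counts below. Shares by control level, GC content or kind of row name are of all rows, with or without an adjusted p. Among protein-coding rows with an adjusted p, 16.6% were called higher and 4.57% lower. Most changes were small. The median ratio was 0.22 among rows called higher, -0.39 among rows called lower and 0.04 over all rows. A size of at least 1 on the log2 scale of means was reached by 19 rows called higher and 88 called lower.

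GFRA2, a receptor for neurturin that signals through RET, had the largest fold change after AC116609.2 among named rows with a mean of at least 50. Its mean was 189.6 in control and 640.8 in trex8168, against 217.1, 176.7 and 223.8 in trex0108, trex5008 and trex4039. The trex8168 mean was well above all 4 others, with a log2 fold change of 1.53 (adjusted p 6.09e-49) in the authors' deposited table. Its locus spans 447239 bases, 366.7% of the GENCODE gene length, so transcripts beyond GFRA2 may be counted in it.

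Of 9 listed rows from the GDNF receptor pathway, 2 rose and 0 fell. The 9 include short rows named GRB2 (control means 11.8 and 22.2) and NRTN (9.46). Besides GFRA2, the row that rose was DOK4, an adaptor downstream of RET, at 850.9 and 991.1. Its log2 fold change was 0.20 (adjusted p 0.0355) in the authors' deposited table. The DOK4 mean was 1281 in trex0108, the highest of the 5 groups, 810.4 in trex5008 and 911.7 in trex4039. The ligand gene GDNF had means of 206 and 187, and the main row of NRTN, which encodes neurturin, 218.5 and 208.4. Neither ligand row passed the threshold.

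SCNN1A encodes the alpha subunit of the epithelial sodium channel. Its mean was 68.3 in control and 254.9 in trex8168, and 60.1, 43.9 and 63.4 in trex0108, trex5008 and trex4039. The trex8168 mean was the highest of the 5 and the trex5008 mean the lowest. The authors' deposited table gives 1.45 (adjusted p 1.59e-26) for trex8168 and -0.37 (adjusted p 0.0204) for trex5008. LTBR, the lymphotoxin beta receptor, overlaps the SCNN1A locus by 3333 bases on chromosome 12 and also rose, from 106 to 206.4, with 0.77 (adjusted p 7.05e-09) in the authors' deposited table. Whether reads were counted by strand is not given in these sources, so reads of the overlap could be counted for either gene.

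The other named neighbours of SCNN1A changed little. CD9, a tetraspanin gene, rose from 1618 to 1917, with 0.23 (adjusted p 0.0275) in the authors' deposited table. TNFRSF1A, a receptor for TNF, had means of 1710 and 1904, with 0.15 (adjusted p 0.0785) in the authors' deposited table. Among genes of sodium handling, 3 of 7 listed rows rose and 0 fell. NR3C2, the mineralocorticoid receptor, rose from 627.4 to 774. Its means in trex0108, trex5008 and trex4039 were 690.5, 756.6 and 796.9. The delta subunit SCNN1D had means of 982.2 and 910.2 and was not called.

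S100A4, a calcium-binding protein gene, rose from a mean of 43 to 129.9, against 49.4, 39.5 and 48.3 in trex0108, trex5008 and trex4039. Its log2 fold change was 1.10 (adjusted p 2.31e-13) in the authors' deposited table. S100A3, whose locus overlaps that of S100A4 by 2097 bases, had 14 and 11.5, and S100A1 had 52 and 38.9. Of the 3 listed S100 rows, S100A4 alone was called. ANXA2, which encodes a membrane-binding annexin, was the 1 called row of 5 annexins, at 7899 and 9296.

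FAT3, a giant cadherin, had a mean of 295.4 in control and 578.1 in trex8168, and 276.2, 313.8 and 310.7 in trex0108, trex5008 and trex4039. Its log2 fold change was 0.83 (adjusted p 2.99e-13) in the authors' deposited table. Of 12 listed cadherin rows, 2 rose (FAT3 and CDH2) and 2 fell (CDH12 and PCDH18), with CDH2 at 4215 and 4689 and CDH12 at 113.3 and 78.9. The junction protein gene CLMP rose from 270.1 to 474.2, and EMILIN1, an elastic fibre glycoprotein, from 126.2 to 233. PAMR1, a secreted protein with a protease-like domain, rose from 115.7 to 245.1. The synaptic vesicle protein gene SV2C rose from 51.5 to 115, and NTNG1, a membrane-anchored netrin, from 56.4 to 102. The growth factor gene TGFB3 rose from 701.8 to 1055, with 0.54 (adjusted p 1.69e-09) in the authors' deposited table. Across the 20 largest named rises, the deposited fold changes ran from 0.54 to 4.23 and 18 rows were protein-coding.

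Regulatory genes among the 20 were CSDC2, MEX3B, HES7 and DUSP13. CSDC2 and MEX3B, which encode RNA-binding proteins, rose from 425.5 to 791.4 and from 686.6 to 1078. HES7, a repressor of the HES family, rose from 158.4 to 302.9, and its trex4039 mean was 240.4. DUSP13, a phosphatase gene, rose from 57.9 to 115. The CSDC2 neighbour CATG00000058719.1, whose locus overlaps it by 180 bases, rose from 36.9 to 62.1.

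For 3 of the 20 rises another group had a similar or higher mean. The antisense RNA LINC01024 had 380 in control, 697.8 in trex8168 and 1226 in trex0108. FAM131B had 319.5 in control, 613.5 in trex8168 and 605.4 in trex0108, and its locus spans 530.8% of the GENCODE gene length. ANKRD37, a gene induced by low oxygen, had 93.1 in control, 169.1 in trex8168 and 159.8 in trex5008. FAM150A, by contrast, had 61.8 in control and 114.7 in trex8168, and between 41.5 and 48.1 in the other target groups.

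**Figure D2:**
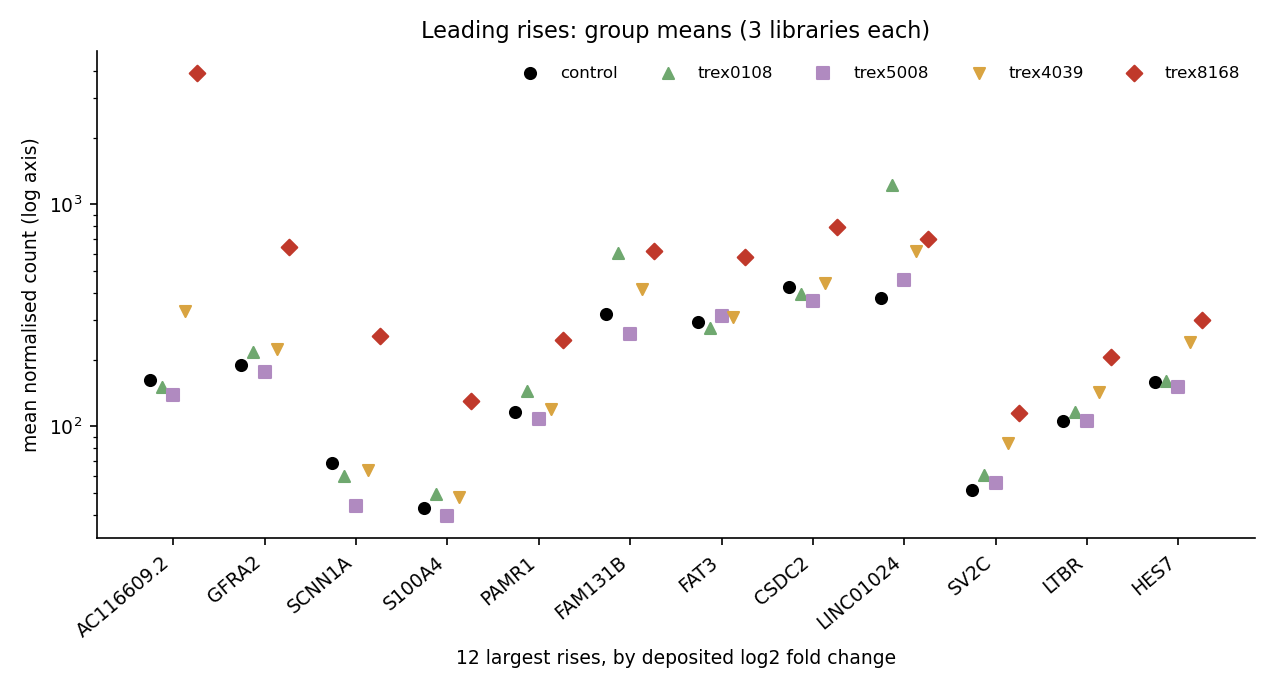
Group means of normalised counts (log y axis) for the 12 largest named rises in trex8168 (x axis); each symbol is the authors' mean of 1 group of 3 libraries, and no error can be drawn. The trex8168 diamond is the highest symbol for all but LINC01024, whose trex0108 mean is 1226.

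The 10 largest named changes among rows not called at 0.1 in the other 3 comparisons were those of GFRA2, S100A4, PAMR1, FAT3, CSDC2, EMILIN1, DUSP13, NTNG1, TGFB3 and RP11-568N6.1. Whether their changes differ between target groups was not tested. The 4 comparisons share the control libraries, so means are given side by side and no overlap is counted.

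Rows that were almost silent in control also rose. They fall outside the rule for named rows and were chosen after their values were seen. CATG00000013615.1, an unannotated locus on chromosome 1, had a mean of 0.616 in control and 119.4 in trex8168, and at most 0.555 in the other target groups. CATG00000013817.1 on chromosome 12 had 1.18 in control, 59 in trex8168 and 11.1 in trex4039. Control means this low rest on few reads, so no fold is given for these 2 rows.

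CLEC1A, a C-type lectin receptor gene, had 4.9 in control and 88.1 in trex8168, against 6.49, 9.33 and 11.7 in trex0108, trex5008 and trex4039. KCNA5, a voltage-gated potassium channel gene, had 13 and 75.2, and NPY2R, a receptor for neuropeptide Y, 18.8 and 49.4. In trex0108, trex5008 and trex4039, KCNA5 had 20.1, 9.15 and 25.9, and NPY2R had 18.6, 20.6 and 41.7. CATG00000111502.1 on chromosome X went from 12.4 to 136.8 and CATG00000076338.1 on chromosome 1 from 622.6 to 1873. Of the 19 rows called higher with a size of at least 1, 11 had a control mean under 50 and 11 were protein-coding.

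Genes of protein synthesis were called higher more often than the protein-coding background and were not called lower. Of 33 listed rows of translation factors, all with symbols that begin with EIF or EEF, 17 rose and 0 fell. EIF2AK1 and EIF2AK2, among the 17, encode kinases and are not translation factors themselves. The median ratio of the list was 0.13, against 0.06 over protein-coding rows. Over all rows with a control mean of 5000 or more it was 0.11. EIF3I, a subunit of initiation factor 3, rose from 8984 to 11440, with 0.34 (adjusted p 1.37e-08) in the authors' deposited table. EIF3E rose from 11926 to 14578 and EIF3M from 6725 to 8172, whereas EIF3B (15842 and 16469) and EIF3C (16097 and 16696) were not called. EIF3E had 12738, 15667 and 15220 in trex0108, trex5008 and trex4039, and EIF3M had 7055, 8334 and 7607. EIF3I had 9705, 10167 and 10247 there, all below its trex8168 mean. The EIF3E mean was thus higher in trex5008 and trex4039 than in trex8168, and the EIF3M mean higher in trex5008. EEF1A1, the elongation factor that brings tRNA to the ribosome, rose from 216537 to 256593, with 0.23 (adjusted p 0.00589) in the authors' deposited table.

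Cytosolic ribosomal proteins had 27 listed rows, of which 10 rose and 0 fell, with a median ratio of 0.22. RPL29 rose from 28690 to 35522 and RPLP0 from 49083 to 56854. RPL7L1, a nucleolar paralogue of RPL7, had the smallest adjusted p of the list, at 12785 and 15949 with 0.31 (adjusted p 2.53e-11) in the authors' deposited table. RPS24 had the highest ratio of means, 0.32, at 26590 and 33200, but was not called (adjusted p 0.164 in the authors' deposited table). Ribosomal protein genes have many processed pseudogenes, and reads can be split between them. Rows of these lists are abundant, and of all rows with a control mean of 5000 or more 29.1% were called higher.

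Mitochondrial lists had calls in the same direction. Of 36 listed rows of mitochondrial ribosomal proteins, 19 rose and 0 fell (median ratio 0.19). MRPL3 rose from 7474 to 9098, with 0.27 (adjusted p 0.000224) in the authors' deposited table, and MRPS33 from 1649 to 2114. Nuclear-encoded respiratory chain subunits had 27 listed rows, of which 13 rose and 0 fell (median ratio 0.22). NDUFA4 rose from 2251 to 2860, the ATP synthase subunit ATP5A1 from 14812 to 17837 and UQCRFS1 of complex III from 3233 to 3877. NDUFA4 had 2487, 2734 and 2713 in trex0108, trex5008 and trex4039, ATP5A1 had 16526, 17520 and 16751, and UQCRFS1 had 3585, 3698 and 3703. Each of these rows also rose with an adjusted p under 0.05 in trex5008 and trex4039. NDUFB10 (5045 and 5400) and SDHA (9389 and 9805) were not called.

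The mitochondrial genome itself has 4 rows in the table, and all 4 were called higher. XLOC_067072 runs from 1 to 16577 and the others lie inside it, so the 4 calls may not be separate. The largest, XLOC_067072, had a mean of 3509463 in control and 4074398 in trex8168, with 0.21 (adjusted p 0.00495) in the authors' deposited table. Both rows named MT-TA rose, from 1854 to 2772 (positions 3183 to 4328) and from 264.1 to 394.1 (5587 to 6393). XLOC_067073 rose from 31222 to 40356, and had 33752, 41998 and 35534 in trex0108, trex5008 and trex4039. Its trex5008 mean was the highest, while for each of the other rows the trex8168 mean was. Mitochondrial rows made up 11.2% of the summed means in control and 12.1% in trex8168, and 11.4%, 11.9% and 11.4% in trex0108, trex5008 and trex4039. Whether this share moves with the nuclear-encoded lists was not tested.

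Chaperone and cell cycle lists also had rises and no falls. Of 10 listed heat shock rows, 4 rose and 0 fell, among them HSP90AA1 from 103491 to 119869 and the co-chaperone DNAJA1 from 11417 to 13270. In trex0108, trex5008 and trex4039, HSP90AA1 had 108902, 123850 and 131457, and DNAJA1 had 12418, 14910 and 15031. Both means were thus higher in trex5008 and trex4039 than in trex8168. Of 30 cell cycle rows, 6 rose and 0 fell, a share of rises near the 16.6% of all protein-coding rows. CCNB1, the mitotic cyclin, rose from 5442 to 6720. CDKN2A, a cyclin-dependent kinase inhibitor gene in the same list, rose from 2735 to 3531. For the helicase subunits MCM2, MCM3 and MCM4 the authors' deposited table gives log2 rises of 0.14 to 0.18.

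**Figure D3:**
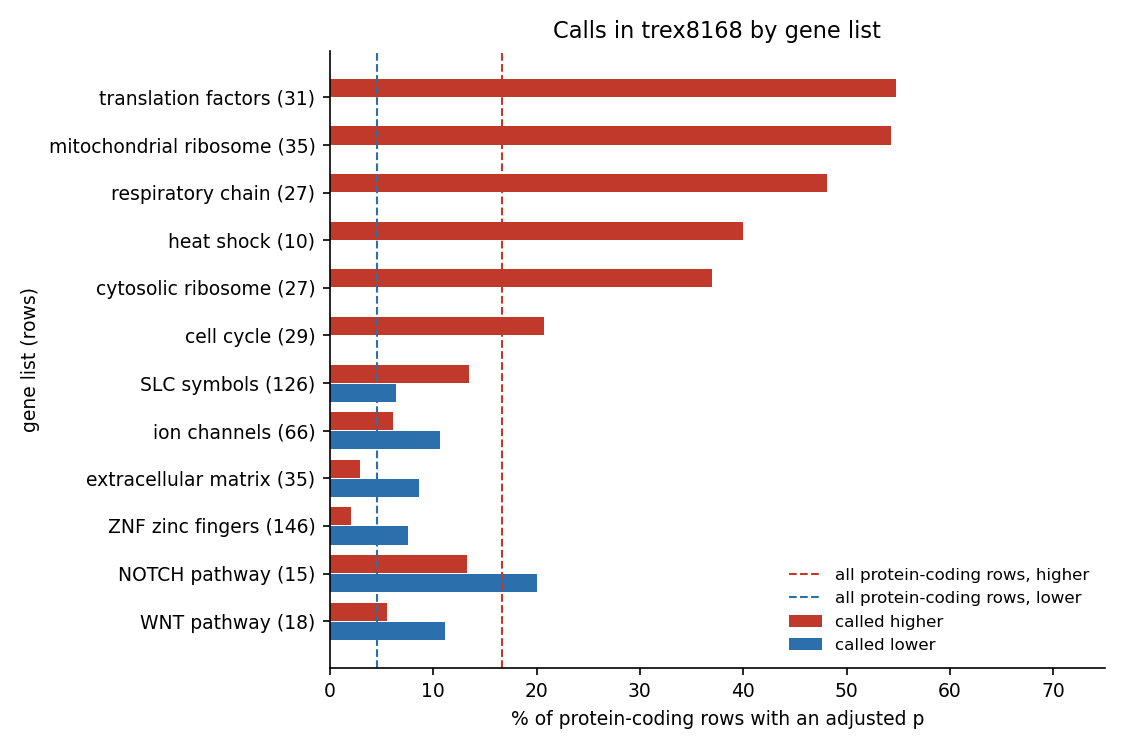
Share of protein-coding rows with an adjusted p that were called higher (red) and lower (blue) in trex8168, in percent (x axis), for 12 gene lists with the number of such rows in brackets; dashed lines mark 16.6% and 4.57%, the shares of all protein-coding rows. Translation factors (54.8%), mitochondrial ribosomal proteins (54.3%) and respiratory chain subunits (48.1%) have the highest red bars and no blue bar.

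Of the 20 largest named falls, 8 were annotated as protein-coding, and the deposited fold changes ran from -0.75 to -0.49. The largest was the pseudogene XXbac-B562F10.11, from 203 to 105.9. The antisense RNA ASMTL-AS1 fell from 153.3 to 70.1 and LINC00085 from 663.7 to 415.3, while the LINC00085 mean in trex0108 was 936. The lincRNA LL22NC03-2H8.5 fell from 1362 to 862, and FER1L4, a pseudogene of the ferlin family, from 409 to 274.7.

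WFIKKN2, which encodes a secreted protein that binds myostatin and GDF11, had a mean of 170.6 in control and 86.5 in trex8168. In trex0108, trex5008 and trex4039 it was 114.6, 100.3 and 123.2, so the control mean was the highest of the 5. The authors' deposited table gives -0.74 for trex8168 (adjusted p 4.43e-07) and -0.45, -0.60 and -0.37 for the other 3. The lowest mean was that of trex8168.

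LENG8, a nuclear protein gene on chromosome 19, was the most abundant of the 20. Its mean was 10500 in control and 6913 in trex8168, and 9828, 5765 and 4363 in trex0108, trex5008 and trex4039. The trex8168 mean lay between those of trex0108 and trex5008. The authors' deposited table gives -0.57 for trex8168 (adjusted p 3.21e-14) and -1.19 for trex4039 (adjusted p 7.64e-66). TEF, a circadian output transcription factor, had 237.9 in control and 149.8 in trex8168, and 112.7 in trex4039. REC8, a cohesin subunit of meiosis, had 172.7 and 110.6, and SSPO, the SCO-spondin gene, 442.1 and 298. Over the 20 falls the median deposited fold change was -0.16 in trex0108, -0.52 in trex5008 and -0.81 in trex4039.

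**Figure D4:**
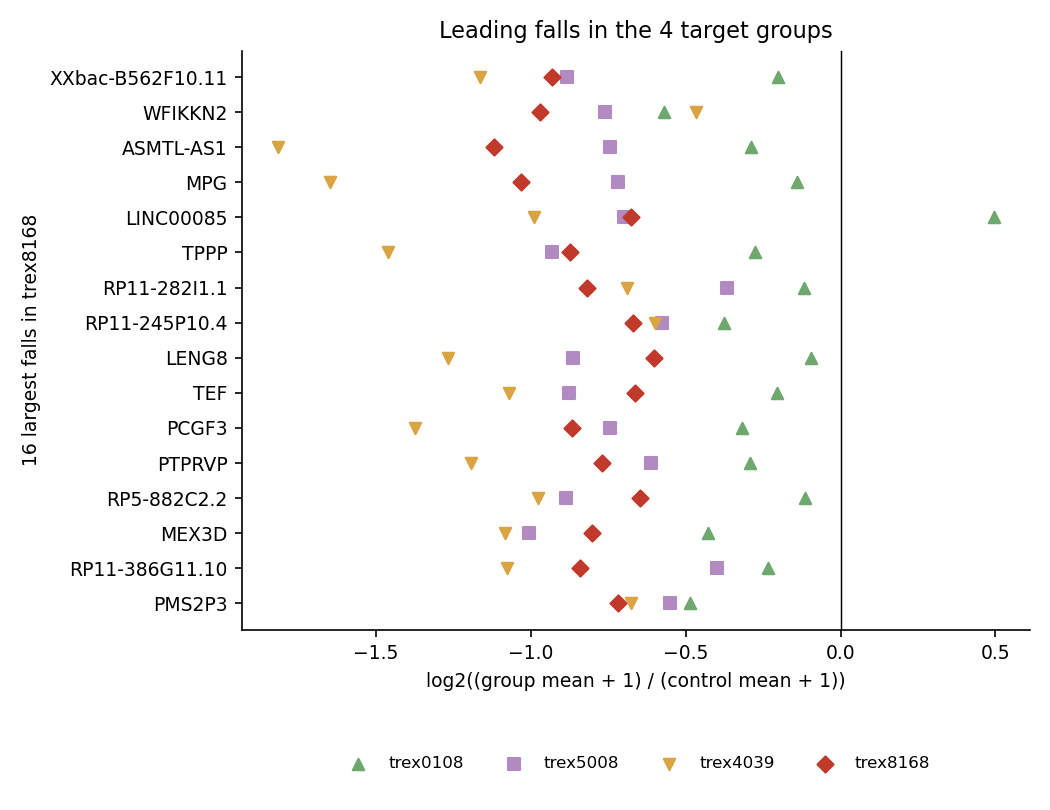
Ratio of each group's mean to the control mean (log2, with 1 added to both; x axis) for the 16 largest named falls in trex8168 (y axis); each symbol is 1 target group, and all groups share the controls. Red diamonds lie left of 0 by rule, trex4039 triangles lie further left for most rows, and the trex0108 mean of LINC00085 lies right of 0.

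Several rows that fell carry a gene's name but lie beside or inside a longer row of that gene, or span a small part of its length. The row named MPG, after a DNA repair glycosylase, that fell from 123.6 to 60 spans 9258 bases, from 150995 to 160252 of chromosome 16. A longer MPG row, from 122736 to 180289, had means of 1186 and 1290 and was not called (adjusted p 0.342 in the authors' deposited table). The shorter MEX3D row fell from 94.2 to 53.6, and the longer MEX3D row had 482.9 and 478.3. By length alone, the shorter MPG and MEX3D rows come to 104.6% and 64.1% of their GENCODE genes. Positions were not compared, so these rows may lie outside the genes whose names they carry. The rows named TPPP (tubulin polymerisation) and PCGF3 (Polycomb repressor) that fell span 10.9% and 9.8% of their GENCODE genes. No longer protein-coding row of either gene was listed beside them. Such a row measures its own span and not the whole gene.

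Among named protein-coding rows, 147 share a symbol with a longer row, and 97 of them lie inside it. None of the 147 was called higher and 24 were called lower. Their median control mean was 25.8, and of all rows with a control mean between 20 and 50, 1.97% were called higher and 12.7% lower. For those 24, the longer row was not called in 18 cases, higher in 3 and lower in 3. The short CARM1 row fell from 59.5 to 26.8, while the long row of CARM1, an arginine methyltransferase, had 5181 and 5261. The short HADH row fell from 38.2 to 19.9, while the long row of HADH, a fatty acid oxidation enzyme, rose from 1928 to 2193. NOTCH1 is one of the 3 in which both fell. Over protein-coding rows with a gene length, rows under 50% of that length made up 17.2% of those called lower, 0.402% of those called higher and 4.81% of those not called. With a mean of at least 50 these shares were 6.05%, 0.408% and 1.10%.

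Rows of low level fell most by ratio. A short row named TRIM37, after a ubiquitin ligase gene, had means of 28.6 and 7.99, and CATG00000096122.1 had 21.7 and 5.74; both were chosen after their values were seen. Of the 88 rows called lower with a size of at least 1, 63 had a control mean under 50 and 47 were unannotated rows with CATG names. Of 826 CATG rows, 597 had an adjusted p. Among all 826, 11 were called higher and 106 lower (12.8%), with a median ratio of -0.43. Their median control mean was 31.6. Of all rows with a control mean between 20 and 50, 12.7% were called lower, with a median ratio of -0.45. An adjusted p was given for 691 of these 709 rows, a larger part than among CATG rows. The 12.8% and 12.7% therefore cannot be set side by side. Rows between 5 and 20 had a median of -0.53 with 0 called lower. Low rows entered the table through comparisons that share the controls, and the part of this selection in the falls was not tested. Antisense rows numbered 362, with 15 higher and 35 lower, and the 191 lincRNA rows had 9 higher and 17 lower.

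The gene lists with falls were mixed. Of 16 listed NOTCH pathway rows, 2 rose and 3 fell. The receptor NOTCH1 fell from 1399 to 1112, with -0.30 (adjusted p 0.00902) in the authors' deposited table. A shorter NOTCH1 row that lies inside the longer one fell from 31.2 to 15.9. The longer NOTCH1 row had 1385, 960.7 and 940.9 in trex0108, trex5008 and trex4039. The ligand DLL4 rose from 169.4 to 237.5 and HES6 from 464.9 to 619.5, while the target genes HES1 (714.3 and 673.2), HEYL (1063 and 1012) and NRARP (827.8 and 788.6) were not called. A row named MAML1, after a coactivator of NOTCH, fell from 29.6 to 13.1, but runs only from 179279368 to 179280182 of chromosome 5. This row and the shorter NOTCH1 row do not measure whole genes, so the longer NOTCH1 row is the remaining fall of the list.

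Of 35 matrix rows, 1 rose and 3 fell. HSPG2, which encodes the basement membrane proteoglycan perlecan, fell from 1339 to 919.6, with -0.49 (adjusted p 3.81e-06) in the authors' deposited table. COL4A2 fell from 4851 to 4324 and LTBP4 from 1801 to 1542, and SPARC rose from 5990 to 7076. Of 15 BMP and TGF-beta rows, 2 rose and 2 fell. TGFB3 and the BMP target ID1 (775.9 to 975.2) rose, and the SMAD corepressors SKI (4305 to 3676) and SKIL (1762 to 1448) fell. The BMP targets ID2 (2978 and 2915), ID3 (2696 and 2875) and SMAD6 (1767 and 1513) were not called. Of 19 WNT rows, 1 rose and 2 fell. The feedback genes AXIN2 (998.4 to 819.7) and NKD1 (1052 to 907.3) fell, and WNT10B rose from 365.2 to 468.9. In trex0108, trex5008 and trex4039, AXIN2 had 929.1, 757.4 and 797.9, and NKD1 had 1001, 937.5 and 1048. WNT10B had 409.4, 373.8 and 475.6 in these groups.

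Of 67 ion channel rows, 4 rose and 7 fell. SCNN1A and KCNA5 are among the 4, with CACNB2 (361 to 450.3) and CHRNA5 (2391 to 2813). The pacemaker channel genes HCN2 (850.9 to 703.1), HCN3 (1176 to 1009) and HCN4 (374.8 to 272.4) fell. In trex0108, trex5008 and trex4039, HCN2 had 784.7, 642.8 and 554.1, and HCN3 had 1055, 933.2 and 759.3. HCN4 had 341.9, 279.2 and 319.4 in these groups. Of 131 rows with a symbol that begins with SLC, 17 rose and 8 fell; SLC25A21-AS1 and SLC9A3R1, among the 17, are not carriers. The mitochondrial carrier SLC25A32 rose from 1375 to 1725 and SLC25A35 fell from 602.4 to 444.2. Among 148 ZNF zinc finger rows, 3 rose and 11 fell, with a median ratio of 0.00. ZNF37A fell from 2359 to 1925 and ZNF106 rose from 4143 to 4973.

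Of 31 axon guidance rows, 3 rose and 1 fell, among them NTNG1 and the plexin PLXNA3 (2203 to 1717). PLXNA3 had 1993, 1523 and 1321 in trex0108, trex5008 and trex4039. Of 9 radial glia rows, LHX2 (305.1 to 402.1) and DACH1 (1907 to 2267) rose and OTX1 (330.5 to 243.6) fell. OTX1 had 312, 213.4 and 196.1 in trex0108, trex5008 and trex4039, while the LHX2 and DACH1 means were highest in trex8168. Of 10 neuronal rows, SCG3 and STMN3 rose. The immediate early gene EGR1 rose from 587.2 to 814.6, the only call among 12 such rows. EGR1 had 1261, 805.8 and 556.3 in trex0108, trex5008 and trex4039, so its trex0108 mean was the highest. In the stress response list of 12 rows, 3 rose and 1 fell, and the row that fell was DDIT4, from 1786 to 1116. DDIT4 had 1304, 892.7 and 570 in trex0108, trex5008 and trex4039. Of 10 interferon-stimulated rows, HERC5 and USP18 rose. GADD45A was the 1 call among 16 p53 target rows, at 1015 and 1218. None of 10 cholesterol synthesis rows, 5 YAP/TEAD target rows and 7 histone rows was called.

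Markers of the cell line and of other cell types were checked. Of 13 genes linked to the kidney origin of the line, 7 were listed, 0 rose and 2 fell, LHX1 (449.9 to 365.5) and SALL1 (1882 to 1652). Their summed mean was 6133 in control and 5669 in trex8168. Of 9 leukocyte, endothelial and fibroblast markers only COL3A1 was listed, at 284.1 and 254.8. The neuronal marker NEFM (5358 and 5463), the pluripotency marker LIN28B (5176 and 5421) and the keratin KRT8 (4548 and 5013) were each the only listed marker of their short set, and none was called. In the longer lists, 1 of 6 epithelial rows rose, CLDN1 from 101.2 to 137.2, 2 of 10 neuronal rows rose as given above, and 0 of 2 pluripotency rows was called. Markers outside the table were not analysed here.

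Parts of the transfected activator have human genes of the same name. The HSF1 row had a mean of 32768 in control and 25442 in trex8168, and 28930, 22960 and 26179 in trex0108, trex5008 and trex4039. The control mean was the highest of the 5, and the authors' deposited table gives -0.30 for trex8168 (adjusted p 0.0388). Reads of the HSF1 domain on the plasmid and of the gene cannot be told apart here. RELA, which encodes p65, had 3540 and 3316 and was not called. Whether the activator's level moves with other changes was not tested.

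Calls differed with the level of a row and with the base composition of its transcript. The median control mean was 2462 among rows called higher, 448.9 among rows called lower and 1178 over all rows. Of 1296 rows with a control mean of 5000 or more, 377 were called higher and 25 lower. Of 1269 rows between 50 and 200, 54 were called higher and 157 lower.

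The longest GENCODE transcript was found for 6409 of 7447 protein-coding rows. Its median GC content was 44.7% for rows called higher, 56.7% for rows called lower and 47.9% for rows not called. Median transcript lengths were 3323, 4732 and 3926 bases in the same order. With rows split by GC content into 5 bins of equal size, 25.6% of the middle bin was called higher and 3.43% lower. In the bin with the highest GC content, 7.25% were called higher and 8.19% lower. The part of GC content, level or library quality in these calls was not tested.

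**Figure D5:**
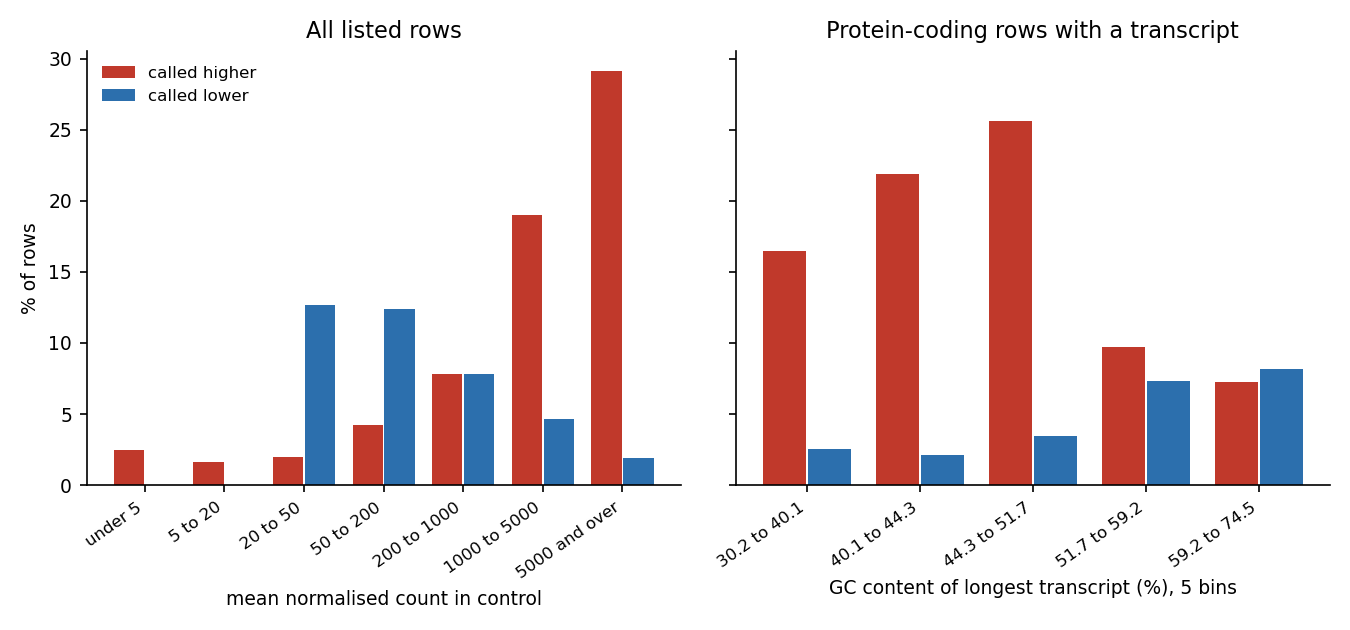
Share of rows called higher (red) and lower (blue) in trex8168, in percent of rows (y axis), by mean normalised count in control (left, all listed rows) and by 5 bins of transcript GC content (right, protein-coding rows with a transcript). Rows called higher rise to 29.1% at a control mean of 5000 or more, and rows called lower reach 8.19% in the bin richest in GC.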

How the data were processed

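PolyA RNA was sequenced from HEK293FT cells in biological triplicates, per the labels' protocols, and p-values measure the spread between these samples. The submitters' processing notes name DESeq2 1.14.1, DESeq, Cufflinks, STAR 2.5.1b, Bowtie2 2.2.1 and bedtools with the builds hg19 and GRCh37, without roles. The deposited signal columns are mean normalised counts per group and over all 15 libraries, per the file headers. The deposited log2 fold changes are the authors', and in all 2255 called rows they lie closer to 0 than the ratio of means. P-values in the authors' table are adjusted, and their call columns equal an adjusted p under 0.1.

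With no counts per library, the planned edgeR test could not be run, and the deposited adjusted p was read as given at 0.05. An adjusted p is missing for 512 rows, which count as not called. Ratios of means used a pseudocount of 1, and list counts use protein-coding rows. Python 3.11.15 with pandas 2.3.3 and numpy 2.4.6 was used; the counting of calls was checked on simulated data. Gene lengths and transcripts came from GENCODE release 29 (GRCh38), matched by symbol, with older symbols matched through RefSeq synonyms for transcripts. Spans in hg19 were compared with GENCODE lengths, not positions.

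Named rows passed an adjusted p of 0.05, have a gene symbol and reach a mean of 50 over all libraries. They are the 20 largest rises and 20 largest falls by deposited fold change, up to 4 called members per list, 10 rows not called elsewhere, 5 of highest level per direction, and neighbours. Further list members and the short rows were picked once their values were known. The members and 38 gene lists were chosen with earlier results of these data known.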

Additional observations from a re-analysis of the deposited data

How the results depend on the processing

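Counts of calls depended on the threshold. With an adjusted p under 0.01, 688 rows were higher and 288 lower, and with one under 0.1, 2267 and 1038. Asking for a ratio of at least 0.5 in size left 85 higher and 264 lower, and protein-coding rows alone gave 1211 and 333. A mean of at least 50 (1541 and 556) and the direction of the ratio of means (1564 and 691) moved neither count by over 1.5 times. The median ratio of all rows was 0.04, and 0.06 with a mean of at least 50. Of 35 list medians, 3 moved by over 0.1 with a mean of at least 50: the GDNF receptor list to 0.11, the S100 list to 1.57, where 1 row was left, and the blood and fibroblast list to -0.02. With the deposited fold change, the S100 median was -0.08. No library could be left out, since the table holds means. No paired analysis was possible because no column carries a replicate number. Depth is unknown, so values near 0 have no interval.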

Other observations

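Some rows were called one way in trex8168 and the other way in another target group. The comparisons share their controls and the difference between target groups was not tested. GPER1, a membrane receptor for oestrogen, had means of 278.2 in control, 414.6 in trex8168, 230.7 in trex5008 and 348.2 in trex4039. GATA2, a transcription factor gene, had 2246 in control, 3002 in trex8168 and 1994 in trex5008. IRX4, a homeobox gene, had 153.8 in control and 232.9 in trex8168, and between 106.3 and 115.3 in the other 3 target groups. The phosphatase gene INPP5J had 1284 in control, 1672 in trex8168 and 912.9 in trex5008. SOX9, which is active in progenitors and cartilage, had 455.5 in control, 357 in trex8168, 296.8 in trex5008 and 836.3 in trex0108. The authors' deposited table gives a log2 fold change of -0.31 for SOX9 in trex8168 (adjusted p 0.00653) and 0.80 in trex0108 (adjusted p 2.66e-20). These rows were chosen after their values were seen.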
